A study of Mus musculus with 11 samples.

Results

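Knockdown of Map3k7 alone was compared with control hairpins in WFU3, a mouse prostate epithelial stem cell line, using 5 of the 11 RNA sequencing libraries of the series. Members were chosen by their genotype labels. The shMap3k7 group held 2 libraries, made from GFP-marked clones 1 (passage 49) and 7 (passage 47) that carried a lentiviral hairpin against Map3k7 (named shTak1 in the labels) and a control hairpin in a puromycin vector. The shControl group held 3 libraries. One was an unnumbered line with control hairpins marked puro and neo (passage 30), and the others were GFP-marked control clones 4 and 5 that also carried a puromycin control hairpin (passage 52 each). Per the labels, clones 1, 7, 4 and 5 were grown from cells plated at clonal density and picked with cloning cylinders, so each library stands for 1 line. All 5 lines carry a control hairpin. The clones carry the Map3k7 or first control hairpin in a modified LentiLox vector with EGFP, and the further control hairpin in pLKO.1-puro. Each of these 5 lines gave 1 library to the comparison. The p-values rest on the spread within all 4 groups of the series, part of it between libraries that share a clone. Only the fit of the 5 libraries alone rests on the spread between lines. A difference set by the hairpin cannot be told apart from one set by the choice of clones. The unnumbered line stood apart: markers of endothelial cells, on a list of 7 genes, summed to 22 and 13 counts in shMap3k7, against 828, 29 and 32 counts in shControl. Its 273 counts of Pecam1, 291 of Cdh5 and 198 of Emcn stood against at most 4 of each in the other 4 libraries. Its passage and vectors differ too, and their part in the results was not tested. The counts of called genes in a list are given without this or any other library where they move by over 1.5 times. For marker lists this was done for the control lines only. The named genes that lose their calls are given too. The other 6 libraries of the series, with Chd1 hairpins, entered the fit for its spread alone. Total counts ran from 14132339 to 15925121 in shMap3k7 and from 15298361 to 18859721 in shControl.

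Map3k7 encodes TAK1, a kinase that binds the adaptor proteins TAB1 and TAB2 or TAB3 and is switched on below the receptors for tumour necrosis factor, interleukin-1, bacterial products and TGF-beta. It phosphorylates the IkB kinase complex, which frees the transcription factor NF-kB to enter the nucleus, and the MAP kinase kinases that activate JNK and p38. In epithelial cells NF-kB drives cytokine, chemokine and antimicrobial genes as well as its own inhibitors, and TAK1 signalling protects many cells from death induced by tumour necrosis factor.

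The targeted gene was lower in both shMap3k7 clones. Map3k7 (ENSMUSG00000028284.13; GRCm38 chromosome 4, 31964097 to 32023467) measured 43.0 and 40.1 CPM in shMap3k7, against 124, 137 and 140.4 CPM in shControl, where values stand in the order clone 1 and clone 7, then unnumbered line, clone 4 and clone 5, here and below. CPM are counts per 1000000 counts of a library whose size was scaled by TMM (trimmed mean of M-values), with no correction for gene length, so levels are compared between libraries and not between genes. The groups did not overlap, and the mean in shMap3k7 was 31.0% of that in shControl. Chd1, the other gene targeted in the series, measured 221 and 238 CPM in shMap3k7, against 212, 195 and 204 CPM in shControl (log2 fold change 0.17 ± 0.10, adjusted p = 0.295).

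Across the transcriptome, called falls outnumbered called rises and more often reached 2-fold. Of 14346 genes tested with edgeR's quasi-likelihood F-test, 1712 (11.9%) were called at a Benjamini-Hochberg adjusted p under 0.05, 697 higher (4.86%) and 1015 lower (7.08%) in shMap3k7. At least 2-fold changes made up 170 of the rises (1.18% of genes tested) and 635 of the falls (4.43%). The CPM ranges of the groups lay apart for 2995 genes with shMap3k7 above (20.9%) and for 3153 with shMap3k7 below (22%), called or not. The fit pools the spread over all 11 libraries, some of which share a line. On the 5 libraries alone, 42 genes were called higher (0.311%) and 185 lower (1.37%), and 41 and 183 of these were called by both fits. Single libraries changed these counts. Calls numbered 88 higher and 156 lower without clone 1, 212 and 272 without clone 7 and 419 and 666 without control clone 4, and 60 rises and 122 falls were called in all 5 fits that left out 1 library. The median log2 fold change over all genes tested was -0.0086.

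**Figure D1:**
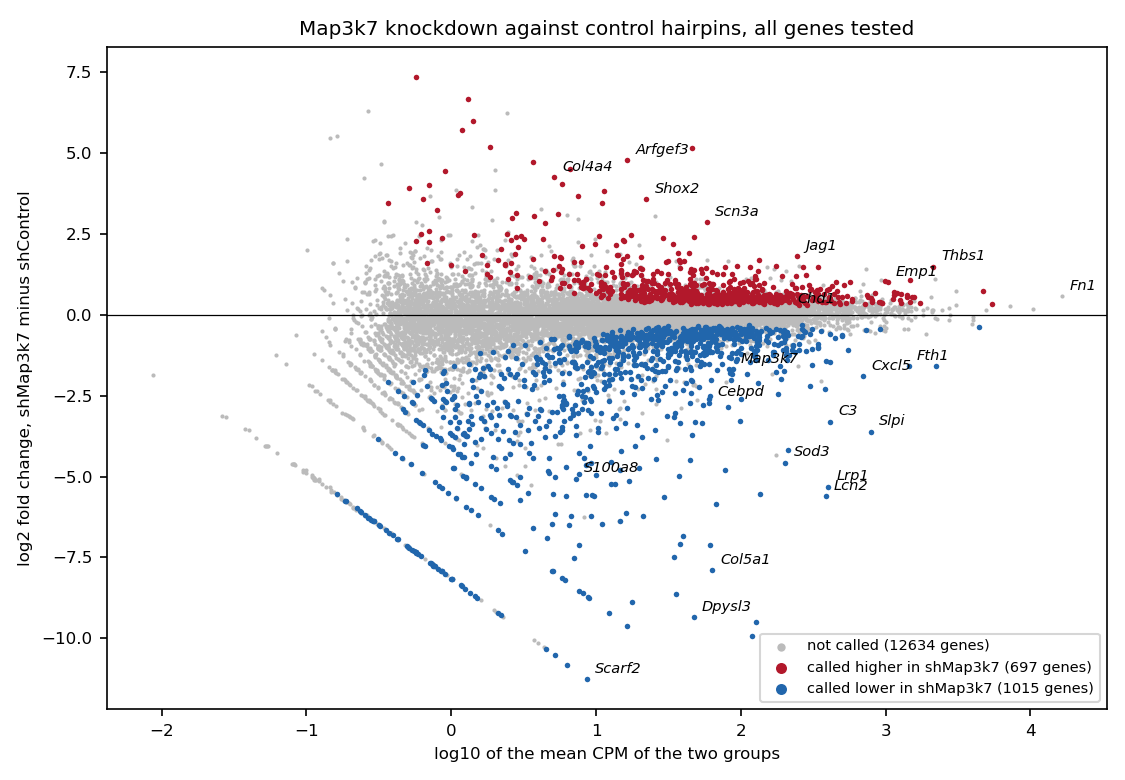
Fitted log2 fold change (shMap3k7 minus shControl) against the log10 of the mean CPM of both groups, 1 point for each of 14346 genes, with 697 genes called higher in red and 1015 called lower in blue. Falls reach further from 0 than rises, and the diagonal lines of points at the lower left are genes with few or no counts in shMap3k7, whose fitted value depends on the prior count.

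The rises that stood out most from the replicate spread included genes of signalling, ion transport and matrix. They are shown as the 10 rises and 10 falls with the smallest p among called genes of at least 2-fold change, a higher group mean of 5 CPM or more and ranges apart, which 125 rises and 412 falls met after unnamed predicted genes were passed over (without the CPM minimum, 1.18% and 4.4% of genes tested). All 20 were also called on the 5 libraries alone and in each of the 5 fits that left out 1 library. Those fits reuse the libraries by which the genes were chosen, so they are no independent support. Arfgef3, a member of the ARF guanine exchange factor family (GRCm38 chromosome 10, 18581839 to 18743949), measured 31.2 and 32.2 CPM in shMap3k7, against 1.19, 1.04 and 1.21 CPM in shControl (log2 fold change 4.78 ± 0.14, adjusted p = 8.08e-08). Both clones stood close together and far above all controls. Scn3a, a voltage-gated sodium channel subunit, measured 90.4 and 114 CPM in shMap3k7, against 11.9, 13.6 and 16.6 CPM in shControl (2.87 ± 0.23, adjusted p = 2.64e-04). Col4a4, a basement membrane collagen chain, measured 12.4 and 7.17 CPM in shMap3k7, against 0.499, 0.467 and 0.550 CPM in shControl (4.26 ± 0.39, adjusted p = 4.32e-04). Its neighbour Col4a3, whose product assembles with it, measured 4.81 and 2.39 CPM in shMap3k7, against 0.125, 0.104 and 0.0550 CPM in shControl (5.17 ± 0.57, adjusted p = 9.47e-04). Here clone 1 was the higher of the 2 clones for both chains, and every control was under 1 CPM. Shox2, a homeobox transcription factor, measured 49.5 and 32.7 CPM in shMap3k7, against 4.68, 2.08 and 3.63 CPM in shControl (3.58 ± 0.35, adjusted p = 5.23e-04). Adamts8, a secreted metalloprotease, measured 22.2 and 21.5 CPM in shMap3k7, against 5.74, 7.27 and 5.28 CPM in shControl (1.84 ± 0.17, adjusted p = 4.32e-04). Jag1, a Notch ligand (chromosome 2, 137081456 to 137116644), measured 430.3 and 327 CPM in shMap3k7, against 119, 112 and 95.7 CPM in shControl (1.80 ± 0.17, adjusted p = 4.84e-04). The other rises were smaller in fold. Emp1, an epithelial membrane protein, measured 1509 and 1243 CPM in shMap3k7, against 639.9, 628 and 788 CPM in shControl (1.00 ± 0.12, adjusted p = 0.00155). Aldh18a1, which makes proline precursors, measured 134 and 143 CPM in shMap3k7, against 38.2, 46.2 and 61.6 CPM in shControl (1.51 ± 0.18, adjusted p = 0.00151). It lies on chromosome 19, whose genes as a group stood higher in both clones, and was at 1.15 (adjusted p = 0.00395) with chromosome medians centred. Pik3cb, a catalytic subunit of phosphoinositide 3-kinase, rose by 1.19 ± 0.15 (adjusted p = 0.00184), and Hs6st1, a heparan sulphate sulphotransferase, by 1.68 ± 0.22 (adjusted p = 0.00202) on the log2 scale.

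The best-separated falls included secreted defence proteins, an endocytic receptor and a cytokine-responsive transcription factor. Slpi, a secreted protease inhibitor of epithelia (chromosome 2, 164354070 to 164389095), measured 86.4 and 152 CPM in shMap3k7, against 1457, 1627 and 1277 CPM in shControl (-3.61 ± 0.26, adjusted p = 1.21e-04). No shMap3k7 value came near a control. Lrp1, a large endocytic receptor that clears proteases and matrix proteins (chromosome 10, 127538161 to 127621148), measured 16.3 and 23.1 CPM in shMap3k7, against 821, 1072 and 455 CPM in shControl (-5.31 ± 0.41, adjusted p = 1.80e-04), with control clone 5 the lowest of the controls. Cebpd, a transcription factor of the acute-phase response, measured 14.5 and 17.6 CPM in shMap3k7, against 99.1, 97.9 and 119 CPM in shControl (-2.71 ± 0.23, adjusted p = 3.23e-04). S100a8, a calcium-binding antimicrobial protein, measured 0.325 and 0.507 CPM in shMap3k7, against 18.5, 11.6 and 12.1 CPM in shControl (-5.07 ± 0.44, adjusted p = 3.49e-04). These 4 genes were lower in both clones than in any control, as the rule for choosing them required. The proton pump gene Atp12a and the scavenger receptor family gene Scarf2 had no count in either clone, against 547 and 925 counts summed over the controls. Against a floor of 3 counts over the group, Atp12a was at least 99.5-fold lower and Scarf2 at least 168-fold lower in shMap3k7. Several falls were modest in size but tight. Aifm1, a mitochondrial flavoprotein with a role in cell death, measured 25.3 and 27.3 CPM in shMap3k7, against 82.0, 73.1 and 81.4 CPM in shControl (-1.58 ± 0.11, adjusted p = 1.21e-04). Poldip2, a DNA polymerase delta interacting protein, measured 32.5 and 33.7 CPM in shMap3k7, against 79.1, 81.6 and 74.3 CPM in shControl (-1.24 ± 0.09, adjusted p = 1.21e-04). St3gal1, a sialyltransferase, measured 12.9 and 13.4 CPM in shMap3k7, against 38.1, 40.4 and 38.4 CPM in shControl (-1.57 ± 0.14, adjusted p = 3.49e-04). For these, each group spanned a narrow range, and ranges apart were required by the rule. Map3k7 itself ranked among these falls.

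The largest differences in CPM included matrix, adhesion and iron-handling transcripts. By the difference of group means, the 6 leading rises were Thbs1, Anxa1, Emp1, Cd44, Psat1 and Inhba, and the 6 leading falls Fth1, Slpi, Cxcl5, Lrp1, Lcn2 and C3. Thbs1, thrombospondin 1, a matricellular protein, measured 3304 and 2933 CPM in shMap3k7, against 1128, 655 and 1555 CPM in shControl (1.49 ± 0.26, adjusted p = 0.00792). Cd44, the hyaluronan receptor, measured 1509.9 and 1159 CPM in shMap3k7, against 689, 507 and 749.7 CPM in shControl (1.04 ± 0.17, adjusted p = 0.00544). Anxa1, a phospholipid-binding protein, measured 2045 and 1916 CPM in shMap3k7, against 1186, 636 and 1036 CPM in shControl (1.06 ± 0.20, adjusted p = 0.0115). Inhba, the activin A subunit, measured 591 and 617 CPM in shMap3k7, against 297, 241 and 358 CPM in shControl (1.02 ± 0.19, adjusted p = 0.0109), and in all 4 genes control clone 4 was the lowest library. Psat1, an enzyme of serine synthesis, measured 511 and 496 CPM in shMap3k7, against 145, 120.3 and 277 CPM in shControl (1.48 ± 0.28, adjusted p = 0.0109). Fth1, the ferritin heavy chain, measured 749 and 694 CPM in shMap3k7, against 1421, 3428 and 1655 CPM in shControl (-1.59 ± 0.31, adjusted p = 0.0115), with control clone 4 far above the other controls, and its many processed pseudogenes make the sharing of reads uncertain. Lcn2, a siderophore-binding antimicrobial protein, measured 1.43 and 30.1 CPM in shMap3k7, against 508, 1177 and 583 CPM in shControl (-5.59 ± 1.22, adjusted p = 0.0179). C3, the central complement component, measured 41.9 and 111 CPM in shMap3k7, against 456, 1214 and 597 CPM in shControl (-3.31 ± 0.53, adjusted p = 0.00557). For both, clone 7 held more transcript than clone 1. On the 5 libraries alone, Emp1, Slpi, Cxcl5 and Lrp1 were called, and the other 8 genes had adjusted p = 0.0555 to 0.0948. Thbs1, Anxa1, Cd44, Psat1, Inhba, Fth1, Cxcl5, Lcn2 and C3 lost their calls without at least 1 of clone 1 and clone 7 (highest adjusted p per gene 0.0559 to 0.14). Anxa1, Psat1 and Fth1 lie on chromosome 19. With chromosome medians centred, they were at 0.68 (adjusted p = 0.0844), 1.11 (adjusted p = 0.0302) and -1.94 (adjusted p = 0.00556) on the log2 scale.

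**Figure D2:**
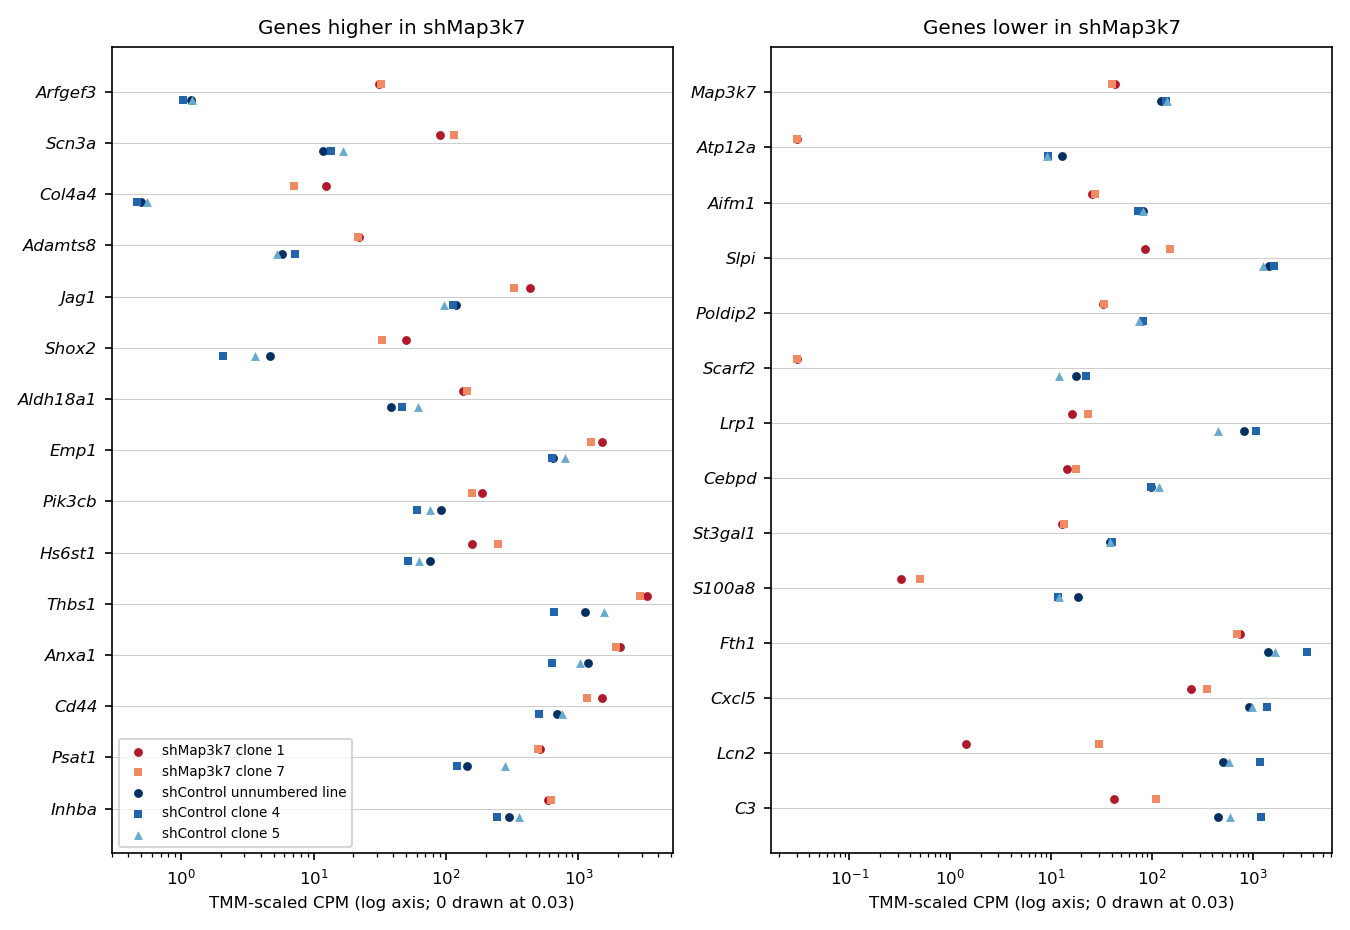
TMM-scaled CPM on a log axis for the genes named by size and separation, rises on the left and falls on the right, with 1 symbol per library and the 2 shMap3k7 clones drawn above the 3 controls in each row. The shMap3k7 and shControl symbols lie apart in every row, as the rule required.

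Apart from Map3k7, no subunit of the TAK1 complex was called, while 5 receptor genes above it were called lower. In the list of the complex with its upstream receptors and adaptors, 0 of 23 tested were called higher and 6 lower. The falls made up 26.1%, against 7.08% of all genes, and the median log2 fold change was -0.17. In the fit of the 5 libraries alone, 0 higher and 3 lower were called as well. For receptors and adaptors, the number called higher was 1 without the unnumbered control line, and the number called lower was 2 without clone 1 and 2 without clone 7. Tab1, an activating subunit, measured 20.3 and 24.1 CPM in shMap3k7, against 22.2, 22.5 and 21.3 CPM in shControl. Tab2, which binds ubiquitin chains, measured 129 and 135 CPM in shMap3k7, against 117, 118 and 154 CPM in shControl, and its relative Tab3 29.4 and 32.2 CPM in shMap3k7, against 29.1, 26.9 and 27.3 CPM in shControl. Their fitted changes were 0.014, 0.024 and 0.15 on the log2 scale. Il1r1, the interleukin-1 receptor, fell most among the receptors, at 11.9 and 11.2 CPM in shMap3k7, against 35.5, 47.2 and 28.3 CPM in shControl (-1.68 ± 0.30, adjusted p = 0.00875). Tgfbr2, the TGF-beta type II receptor, measured 138 and 106 CPM in shMap3k7, against 274, 297 and 287 CPM in shControl (-1.23 ± 0.12, adjusted p = 4.84e-04), and Tgfbr1, the type I receptor, 132 and 125 CPM in shMap3k7, against 205, 337 and 301 CPM in shControl (-1.13 ± 0.21, adjusted p = 0.0103). Tnfrsf1a, the main receptor for tumour necrosis factor, fell by 0.57 ± 0.12 (adjusted p = 0.0159) and Il1rap, the co-receptor of Il1r1, fell by 0.85 ± 0.17 (adjusted p = 0.0135). The groups did not overlap in any of these 5 receptor genes, and shMap3k7 lay below all controls in 22% of all genes tested, called or not. Tgfbr2 kept its call when any 1 of the 5 libraries was left out, while Il1r1, Tgfbr1, Tnfrsf1a and Il1rap lost theirs without at least 1 of clone 1 and clone 7 (highest adjusted p per gene 0.0766 to 0.125). The adaptors Traf6 (0.37, adjusted p = 0.0972), Traf2 (-0.082, adjusted p = 0.644) and Myd88 (-0.36, adjusted p = 0.0833) were not called.

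Most kinases downstream of TAK1 were not called, and the few calls went in both directions. Of 20 listed, 2 of 18 tested were called higher and 1 lower (11.1% and 5.56%, against 4.86% and 7.08% of all genes), with 0 in the fit of the 5 libraries alone, and the median log2 fold change was 0.037. For these kinases, the number called higher was 0 without clone 1, 0 without clone 7 and 1 without control clone 4, and the number called lower was 0 without clone 1 and 0 without clone 7. Mapk8, which encodes JNK1, measured 30.0 and 27.2 CPM in shMap3k7, against 22.2, 20.1 and 18.3 CPM in shControl (0.50 ± 0.11, adjusted p = 0.0206). Chuk, the IkB kinase alpha subunit, measured 93.3 and 91.4 CPM in shMap3k7, against 62.2, 64.6 and 73.0 CPM in shControl (0.47 ± 0.11, adjusted p = 0.0216), and Ikbkg, the regulatory subunit NEMO, 33.1 and 35.9 CPM in shMap3k7, against 50.3, 52.5 and 43.7 CPM in shControl (-0.50 ± 0.14, adjusted p = 0.0446). Mapk8, Chuk and Ikbkg lost their calls without at least 1 of clone 1, clone 7, the unnumbered control line and control clone 4 (highest adjusted p per gene 0.129 to 0.215). The limma voom test did not call Ikbkg (adjusted p = 0.0538). With no filter on low counts, Ikbkg lost the call (adjusted p = 0.0563). Chuk lies on chromosome 19 and stood at 0.11 (adjusted p = 0.638) with chromosome medians centred. Ikbkb, the subunit that TAK1 phosphorylates, measured 75.2 and 93.7 CPM in shMap3k7, against 90.0, 81.8 and 88.4 CPM in shControl (-0.039, adjusted p = 0.847). Mapk14, p38 alpha, was at 105 and 97.8 CPM in shMap3k7, against 104, 98.4 and 97.1 CPM in shControl (0.025, adjusted p = 0.892).

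Of NF-kB subunits and their feedback inhibitors, 6 genes were called lower, Rela not among them. Among them 0 of 20 tested were called higher and 6 lower (30%, against 7.08% of all genes), and the median log2 fold change was -0.41. In the fit of the 5 libraries alone, 0 higher and 2 lower were called as well. For NF-kB genes, the number called lower was 3 without clone 1, 3 without clone 7 and 3 without control clone 4. Rela, the main activating subunit, measured 161 and 136 CPM in shMap3k7, against 138, 129 and 156 CPM in shControl (0.079, adjusted p = 0.718), and so overlapped between groups. With chromosome medians centred, Rela changed sign to -0.29 (adjusted p = 0.0906) and was still not called. Nfkb1 measured 191 and 198 CPM in shMap3k7, against 241, 381 and 293 CPM in shControl (-0.65 ± 0.17, adjusted p = 0.0324) and Relb 21.6 and 14.4 CPM in shMap3k7, against 29.1, 38.1 and 36.6 CPM in shControl (-0.94 ± 0.22, adjusted p = 0.0217). Bcl3, an IkB family cofactor, measured 5.01 and 9.78 CPM in shMap3k7, against 39.0, 59.8 and 38.7 CPM in shControl (-2.64 ± 0.30, adjusted p = 0.00119). Zc3h12a, a ribonuclease that degrades cytokine mRNAs, measured 14.05 and 13.7 CPM in shMap3k7, against 35.7, 61.6 and 41.8 CPM in shControl (-1.74 ± 0.25, adjusted p = 0.00332). Nfkbia, which encodes the inhibitor IkB alpha, measured 56.9 and 41.8 CPM in shMap3k7, against 77.6, 69.7 and 85.3 CPM in shControl (-0.65 ± 0.18, adjusted p = 0.0396), and stood at -0.67 (adjusted p = 0.0554) with chromosome medians centred, so that its call ended. Tnip3, an inhibitor that binds A20, fell by 2.87 ± 0.66 (adjusted p = 0.0218). Tnfaip3, which encodes A20 and is a standard NF-kB target, overlapped between groups at 69.4 and 59.9 CPM in shMap3k7, against 47.1, 72.7 and 82.6 CPM in shControl (adjusted p = 0.889). Bcl3 and Zc3h12a kept their calls when any 1 of the 5 libraries was left out, while Nfkb1, Relb, Nfkbia and Tnip3 lost theirs without at least 1 of clone 1, clone 7, the unnumbered control line, control clone 4 and control clone 5 (highest adjusted p per gene 0.145 to 0.24).

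Cytokine and chemokine genes were called lower more often than higher. Of 42 listed genes, 28 passed the filter on low counts, and 1 was called higher and 10 lower. These made up 3.57% and 35.7%, against 4.86% and 7.08% of all genes. Of the falls, 5 were called in the fit of the 5 libraries alone as well. The median log2 fold change was -0.91. For cytokines, the number called higher was 0 without clone 1, 0 without clone 7 and 0 without control clone 4, and the number called lower was 4 without clone 1 and 3 without clone 7. Il6, an inflammatory cytokine, measured 0.195 and 0.507 CPM in shMap3k7, against 15.2, 23.7 and 11.5 CPM in shControl (-5.58 ± 0.59, adjusted p = 8.47e-04). Cxcl2, a neutrophil chemokine, measured 0.325 and 0.435 CPM in shMap3k7, against 8.86, 19.7 and 28.0 CPM in shControl (-5.62 ± 0.67, adjusted p = 0.00143). Il18, a cytokine of the interleukin-1 family, measured 0.260 and 0.217 CPM in shMap3k7, against 2.50, 2.54 and 2.64 CPM in shControl (-3.38 ± 0.41, adjusted p = 0.0015). In these 3 genes both clones lay under 1 CPM and every control above 2 CPM. The chemokine Cxcl5 fell less in fold, at 245 and 349.8 CPM in shMap3k7, against 931, 1398 and 997 CPM in shControl (-1.90 ± 0.41, adjusted p = 0.0177), and Lif, a relative of interleukin-6, measured 141 and 137 CPM in shMap3k7, against 215, 225 and 236 CPM in shControl (-0.70 ± 0.12, adjusted p = 0.0074). Csf1, the macrophage growth factor, measured 311 and 329 CPM in shMap3k7, against 254, 356 and 541 CPM in shControl (-0.26, adjusted p = 0.534), and its groups overlapped. Clcf1, another interleukin-6 relative, named after its values were seen, was the gene called higher (0.69 ± 0.18, adjusted p = 0.0344). It lies on chromosome 19, and stood at 0.32 (adjusted p = 0.329) with chromosome medians centred. Il6, Cxcl2 and Il18 kept their calls when any 1 of the 5 libraries was left out, while Lif and Clcf1 lost theirs without at least 1 of clone 1, clone 7 and control clone 4 (highest adjusted p per gene 0.0611 to 0.19).

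Innate immune sensors and effectors had the highest share of falls among the 23 lists. Here 0 of 30 tested were called higher and 17 lower (56.7%, against 7.08% of all genes), 0 higher and 6 lower in the fit of the 5 libraries alone as well, and the median log2 fold change was -3.35. For innate immune genes, the number called higher was 1 without the unnumbered control line and 1 without control clone 5, and the number called lower was 7 without clone 1. Besides Slpi, S100a8, Lcn2 and C3 they included Cd14, the co-receptor for bacterial lipopolysaccharide, at 13.1 and 14.6 CPM in shMap3k7, against 89.0, 126 and 74.0 CPM in shControl (-2.80 ± 0.26, adjusted p = 4.56e-04). The acute-phase gene Saa3 had 3 counts over both shMap3k7 clones against 808 over the 3 shControl lines. It measured 0.0650 and 0.145 CPM in shMap3k7, against 16.1, 9.70 and 19.96 CPM in shControl, and was 147-fold lower in shMap3k7, with a 95% counting interval of 50.1 to 714. Ptgs2, which encodes cyclooxygenase 2 and is often grouped with NF-kB targets, stood the other way without being called, at 1321 and 1216 CPM in shMap3k7, against 593, 322 and 885 CPM in shControl (1.08, adjusted p = 0.0518). Cd14 and Saa3 kept their calls when any 1 of the 5 libraries was left out.

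The promoters of 5 genes, picked by name from the called falls, are shown with the letters of NF-kB and C/EBP factors. Such factors are known to drive inflammatory promoters of this kind, and their part in these falls was not tested. Each window runs from 250 bases before to 50 bases after the start of transcription, in RefSeq on GRCm38.p6, written 5′ to 3′ on the strand of the gene. Capitals mark the NF-kB letters (GGG, any 5 bases, then CC) or the C/EBP letters (TTGCNNAA) on either strand, and overlapping matches merge into 1 run.
Il6, chr5:30012864-30013163, plus strand: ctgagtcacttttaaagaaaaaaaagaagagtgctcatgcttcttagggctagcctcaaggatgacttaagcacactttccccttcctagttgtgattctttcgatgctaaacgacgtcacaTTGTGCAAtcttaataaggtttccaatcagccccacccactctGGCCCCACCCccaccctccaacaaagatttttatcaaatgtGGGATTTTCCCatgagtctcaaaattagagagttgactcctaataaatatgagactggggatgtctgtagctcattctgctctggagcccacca
Cxcl2, chr5:90903649-90903948, plus strand: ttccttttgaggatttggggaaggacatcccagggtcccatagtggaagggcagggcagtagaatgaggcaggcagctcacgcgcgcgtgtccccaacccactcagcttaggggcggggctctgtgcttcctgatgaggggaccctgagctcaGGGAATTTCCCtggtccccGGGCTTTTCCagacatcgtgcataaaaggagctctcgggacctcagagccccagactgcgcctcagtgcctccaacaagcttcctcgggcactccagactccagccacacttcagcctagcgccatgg
Saa3, chr7:46715627-46715926, minus strand: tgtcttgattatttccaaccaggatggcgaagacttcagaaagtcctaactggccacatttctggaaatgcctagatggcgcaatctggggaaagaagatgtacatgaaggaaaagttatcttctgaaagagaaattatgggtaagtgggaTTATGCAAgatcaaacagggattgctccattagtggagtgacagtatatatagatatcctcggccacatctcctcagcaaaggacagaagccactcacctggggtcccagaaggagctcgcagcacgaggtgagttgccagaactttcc
Lcn2, chr2:32387690-32387989, minus strand: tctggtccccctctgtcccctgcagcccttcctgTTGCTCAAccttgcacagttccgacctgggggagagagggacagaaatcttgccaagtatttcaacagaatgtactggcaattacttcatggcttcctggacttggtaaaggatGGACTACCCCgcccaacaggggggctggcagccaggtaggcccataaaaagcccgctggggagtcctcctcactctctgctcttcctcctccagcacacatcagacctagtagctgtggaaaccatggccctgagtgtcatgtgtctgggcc
S100a8, chr3:90668821-90669120, plus strand: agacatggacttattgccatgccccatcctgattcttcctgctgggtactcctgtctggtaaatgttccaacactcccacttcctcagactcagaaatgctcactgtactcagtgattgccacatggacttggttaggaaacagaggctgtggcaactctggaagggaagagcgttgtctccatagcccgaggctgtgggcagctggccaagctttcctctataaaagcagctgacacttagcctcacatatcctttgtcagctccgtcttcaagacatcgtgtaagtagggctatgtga
The window of Il6 held 3 NF-kB matches, 2 of them overlapping, and 1 C/EBP match, and that of Cxcl2 held 3 NF-kB matches, 2 of them overlapping, and no C/EBP match. The Saa3 window held 1 C/EBP match and no NF-kB match in these letters, and the Lcn2 window 1 of each. The S100a8 window held neither. Windows were found for 24 of the 33 called falls of the NF-kB, cytokine and innate lists. The NF-kB letters occurred in 17 of these 24 genes (70.8%), against 72.0% of 10260 tested genes with a window and 50.8% of all 32851 windows. The C/EBP letters occurred in 9 of the 24 (37.5%), against 10.0% of tested genes with a window and 10.8% of all windows. These are matches of letters, not binding sites, and no test was made of them.

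**Figure D3:**
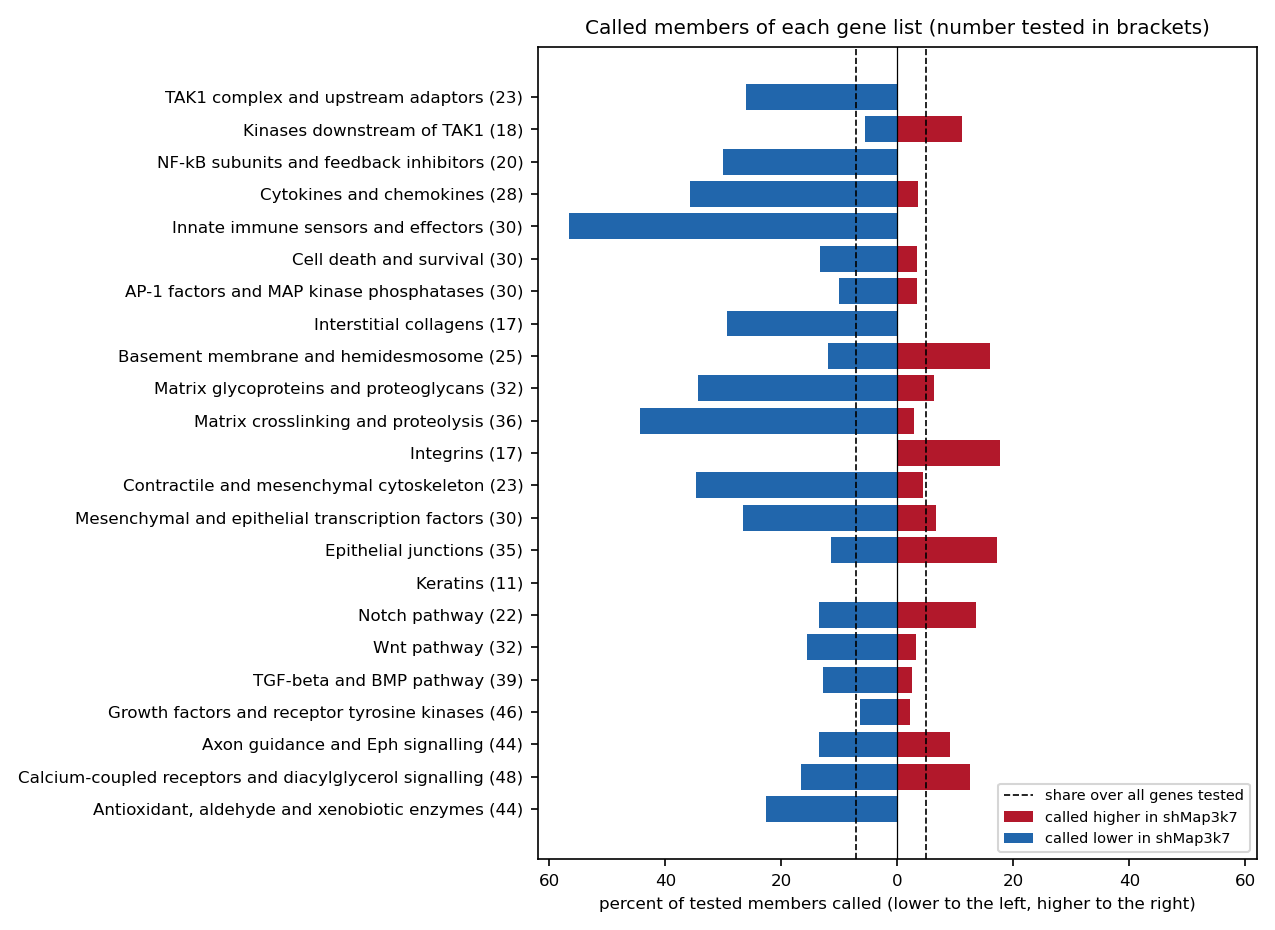
Percent of the tested members of each of the 23 gene lists that were called lower (bars to the left, blue) or higher (bars to the right, red) in shMap3k7, with the number tested in brackets and dashed lines at the shares over all genes tested, 7.08% lower and 4.86% higher. Innate immune genes have the longest bar to the left, at 56.7%, and integrins the longest to the right, at 17.6%.

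Few genes of cell death and survival and of AP-1 were called, with a smaller share of rises than over all genes. Of death and survival genes, 1 of 30 tested was called higher and 4 lower (3.33% and 13.3%, against 4.86% and 7.08% of all genes, median 0.057), none of them in the fit of the 5 libraries alone. Pmaip1, an inducer of apoptosis, measured 20.5 and 23.9 CPM in shMap3k7, against 9.42, 4.57 and 4.67 CPM in shControl (1.84 ± 0.32, adjusted p = 0.0074). Tnfrsf1b, a further receptor for tumour necrosis factor, measured 6.89 and 13.4 CPM in shMap3k7, against 23.8, 68.1 and 27.8 CPM in shControl (-1.98 ± 0.44, adjusted p = 0.0184), and Birc3, an inhibitor of apoptosis and NF-kB target, 12.4 and 10.1 CPM in shMap3k7, against 18.04, 32.1 and 23.98 CPM in shControl (-1.14 ± 0.28, adjusted p = 0.0265). Mcl1, a survival protein, measured 181 and 182 CPM in shMap3k7, against 166, 158 and 164 CPM in shControl (0.16, adjusted p = 0.203). Of AP-1 factors and MAP kinase phosphatases, 1 of 30 tested was called higher and 3 lower (3.33% and 10%, against the same 4.86% and 7.08%, median -0.0045). Of these, 0 higher and 1 lower were called in the fit of the 5 libraries alone as well. Jdp2, a repressor of AP-1, measured 8.97 and 9.85 CPM in shMap3k7, against 19.8, 33.8 and 28.6 CPM in shControl (-1.54 ± 0.21, adjusted p = 0.00294), Fosl2, an AP-1 subunit, 180.0 and 170.3 CPM in shMap3k7, against 285, 315 and 381 CPM in shControl (-0.90 ± 0.15, adjusted p = 0.00656), and Dusp10, a phosphatase of JNK and p38, 17.4 and 14.1 CPM in shMap3k7, against 8.49, 9.29 and 8.69 CPM in shControl (0.84 ± 0.17, adjusted p = 0.0128). For death and survival genes, the number called higher was 0 without clone 7, and the number called lower was 0 without clone 1, 1 without clone 7 and 1 without control clone 4. Among the AP-1 list, the number called higher was 0 without clone 1 and 4 without control clone 5, and the number called lower was 1 without clone 1. Jdp2 kept its call when any 1 of the 5 libraries was left out, while Pmaip1, Tnfrsf1b, Birc3, Fosl2 and Dusp10 lost theirs without at least 1 of clone 1, clone 7 and control clone 4 (highest adjusted p per gene 0.0504 to 0.159).

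The 4 called interstitial collagen genes named here were at 2.68 CPM or less in both clones, but the controls differed among themselves. In the list, 0 of 17 tested were called higher and 5 lower (29.4% lower, against 7.08% of all genes, median -2.30). Of these, 0 higher and 2 lower were called in the fit of the 5 libraries alone as well. For interstitial collagens, the number called lower was 2 without clone 1, 2 without clone 7 and 9 without control clone 5. Col5a1, a chain of type V collagen, was the clearest, at 0.130 and 0.942 CPM in shMap3k7, against 144, 150.3 and 81.4 CPM in shControl (-7.90 ± 0.81, adjusted p = 6.61e-04). Col6a1 measured 1.95 and 2.68 CPM in shMap3k7, against 139, 207 and 49.8 CPM in shControl (-5.84 ± 0.78, adjusted p = 0.0024) and its neighbour Col6a2 0.585 and 0.145 CPM in shMap3k7, against 90.7, 107 and 9.13 CPM in shControl (-7.49 ± 1.23, adjusted p = 0.00615), both chains of type VI collagen. Control clone 5 was the lowest control for all 3. Col3a1, a fibrillar chain of connective tissue, had 1 count over both shMap3k7 clones against 914 over the 3 shControl lines. It was 499-fold lower in shMap3k7, with a 95% counting interval of 89.3 to 19721, while control clone 5 held 1.21 CPM against 34.0 CPM in the unnumbered line. Col18a1, which is cleaved to endostatin, measured 293 and 369 CPM in shMap3k7, against 366, 506 and 564 CPM in shControl (-0.53, adjusted p = 0.174). Col5a1 and Col6a1 kept their calls when any 1 of the 5 libraries was left out, while Col6a2 and Col3a1 lost theirs without at least 1 of clone 1 and clone 7 (highest adjusted p per gene 0.0645 to 0.12). The limma voom test did not call Col6a2 and Col3a1 (adjusted p = 0.209 to 0.323).

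Basement membrane genes were called in both directions. Of these, 4 of 25 tested were called higher and 3 lower (16% and 12%, against 4.86% and 7.08% of all genes, median 0.055), 2 higher and 1 lower in the fit of the 5 libraries alone as well. For this list, the number called higher was 2 without clone 1, and the number called lower was 0 without clone 1, 0 without clone 7, 1 without control clone 4 and 6 without control clone 5. Col4a3 and Col4a4 were among the called rises. Lama4, a laminin chain of vessels and muscle, measured 6.37 and 6.59 CPM in shMap3k7, against 55.7, 150.4 and 50.0 CPM in shControl (-3.72 ± 0.70, adjusted p = 0.0103). Plec and Lama5 were not called (-0.44 and 0.17 on the log2 scale). Nid1, which links laminin to collagen IV and was named after its values were seen, was called lower (-9.92 ± 2.42, adjusted p = 0.0268) with 0.260 and 0.217 CPM in shMap3k7, against 236, 479 and 0.165 CPM in shControl. Control clone 5 was as low as the shMap3k7 clones, so the groups overlapped. Nid1 lost the call without at least 1 of clone 1, clone 7 and control clone 4 (highest adjusted p 0.163). The limma voom test did not call Nid1 (adjusted p = 0.713). In the integrin list, 3 of 17 tested were called higher and 0 lower (17.6% higher, against 4.86% of all genes, median -0.60). None of them was called in the fit of the 5 libraries alone. Itgb1, the most widely shared beta subunit, measured 1363 and 1405 CPM in shMap3k7, against 941, 868 and 924 CPM in shControl (0.60 ± 0.09, adjusted p = 0.0036), Itga2, a collagen-binding subunit, 30.6 and 26.7 CPM in shMap3k7, against 15.7, 13.8 and 10.998 CPM in shControl (1.09 ± 0.27, adjusted p = 0.0281), and Itga8 4.16 and 5.22 CPM in shMap3k7, against 1.56, 1.35 and 0.385 CPM in shControl (2.09 ± 0.48, adjusted p = 0.0218). For integrins, the number called higher was 1 without clone 1 and 1 without clone 7, and the number called lower was 2 without the unnumbered control line and 3 without control clone 5. Col4a3, Col4a4 and Itgb1 kept their calls when any 1 of the 5 libraries was left out, while Lama4, Itga2 and Itga8 lost theirs without at least 1 of clone 1, clone 7, control clone 4 and control clone 5 (highest adjusted p per gene 0.0952 to 0.155).

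Called genes for matrix glycoproteins and for the enzymes that process matrix were mostly lower. Among glycoproteins and proteoglycans, 2 of 32 tested were called higher and 11 lower (6.25% and 34.4%, against 4.86% and 7.08% of all genes, median -0.59). Of these, 0 higher and 3 lower were called in the fit of the 5 libraries alone as well. Emilin2, an elastic fibre glycoprotein, measured 0.455 and 1.59 CPM in shMap3k7, against 38.1, 26.3 and 20.4 CPM in shControl (-4.80 ± 0.48, adjusted p = 6.49e-04). Spp1, osteopontin, measured 11.7 and 32.5 CPM in shMap3k7, against 298, 492 and 412 CPM in shControl (-4.19 ± 0.55, adjusted p = 0.00223), and Matn2, a matrilin, 1.89 and 2.82 CPM in shMap3k7, against 19.2, 28.2 and 10.2 CPM in shControl (-3.03 ± 0.39, adjusted p = 0.00209). These 3 fell in both clones below every control, as did 22% of all genes tested, called or not. Bgn, biglycan, had 1 count over both shMap3k7 clones against 1244 over the 3 shControl lines. It was 679-fold lower in shMap3k7, with a 95% counting interval of 122 to 26833, with controls from 4.78 to 53.1 CPM. Fn1, fibronectin, was not called, at 19157 and 20121 CPM in shMap3k7, against 10149.8, 17648 and 11739 CPM in shControl (0.58, adjusted p = 0.0724). Thbs1 and Ctgf were the called rises. Ctgf, a matricellular protein, named after its values were seen, measured 247 and 275 CPM in shMap3k7, against 95.6, 45.1 and 133 CPM in shControl (1.52 ± 0.36, adjusted p = 0.0244). Of crosslinking and proteolysis genes, 1 of 36 tested was called higher and 16 lower (2.78% and 44.4%, against 4.86% and 7.08% of all genes, median -0.98). Of these, 0 higher and 5 lower were called in the fit of the 5 libraries alone as well. Adamts2, which trims procollagen, measured 0.455 and 0.942 CPM in shMap3k7, against 25.7, 42.2 and 10.5 CPM in shControl (-5.23 ± 0.81, adjusted p = 0.00438). Serpinh1, the collagen chaperone HSP47, measured 256 and 219 CPM in shMap3k7, against 471, 471 and 398 CPM in shControl (-0.91 ± 0.14, adjusted p = 0.00483), and Serpine2, a secreted protease inhibitor, 100.03 and 116 CPM in shMap3k7, against 484, 764 and 239 CPM in shControl (-2.20 ± 0.39, adjusted p = 0.00792). Timp1, an inhibitor of metalloproteases, measured 143 and 84.9 CPM in shMap3k7, against 285, 342 and 284 CPM in shControl (-1.41 ± 0.26, adjusted p = 0.00993). For glycoproteins, the number called higher was 0 without clone 1 and 1 without clone 7, and the number called lower was 3 without clone 1 and 3 without clone 7. Among crosslinking and proteolysis genes, the number called higher was 0 without clone 1, 0 without clone 7, 0 without the unnumbered control line and 0 without control clone 4, and the number called lower was 3 without clone 1 and 1 without clone 7. Emilin2, Spp1 and Matn2 kept their calls when any 1 of the 5 libraries was left out, while Bgn, Ctgf, Adamts2, Serpinh1, Serpine2 and Timp1 lost theirs without at least 1 of clone 1 and clone 7 (highest adjusted p per gene 0.0523 to 0.113). The limma voom test did not call Bgn (adjusted p = 0.195).

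The called falls among transcription factors took in mesenchymal factors and also Ehf and Trp63, which act in epithelial cells. In the joint list of mesenchymal and epithelial factors, 2 of 30 tested were called higher and 8 lower. These made up 6.67% and 26.7%, against 4.86% and 7.08% of all genes (median -0.28). Of these, 0 higher and 2 lower were called in the fit of the 5 libraries alone as well. For transcription factors, the number called higher was 0 without clone 1, 0 without clone 7, 4 without the unnumbered control line and 1 without control clone 4, and the number called lower was 3 without clone 1 and 4 without clone 7. Zeb1, a repressor of epithelial genes, measured 0.195 and 0.724 CPM in shMap3k7, against 20.8, 50.1 and 24.2 CPM in shControl (-6.12 ± 0.83, adjusted p = 0.00253), and Zeb2, its relative, 2.21 and 3.62 CPM in shMap3k7, against 12.6, 43.4 and 17.8 CPM in shControl (-3.08 ± 0.54, adjusted p = 0.00781). Snai1, another repressor of this class, measured 21.7 and 21.6 CPM in shMap3k7, against 49.4, 46.0 and 36.3 CPM in shControl (-1.02 ± 0.21, adjusted p = 0.015). Ehf, an epithelial ETS factor, measured 12.2 and 24.3 CPM in shMap3k7, against 129, 278 and 127 CPM in shControl (-3.29 ± 0.47, adjusted p = 0.00314), and Trp63, the basal cell factor p63, 0.585 and 1.81 CPM in shMap3k7, against 11.4, 12.1 and 5.17 CPM in shControl (-3.00 ± 0.66, adjusted p = 0.0184). Esrp1, an epithelial splicing factor that stood among the rises, measured 312 and 284 CPM in shMap3k7, against 145, 114 and 208 CPM in shControl (0.94 ± 0.21, adjusted p = 0.0204), and with chromosome medians centred 0.73 (adjusted p = 0.0527). Zeb1 and Ehf kept their calls when any 1 of the 5 libraries was left out, while Zeb2, Snai1, Trp63 and Esrp1 lost theirs without at least 1 of clone 1 and clone 7 (highest adjusted p per gene 0.0887 to 0.139).

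Junction genes were called in both directions, and no keratin was called. Of epithelial junction genes, 6 of 35 tested were called higher and 4 lower (17.1% and 11.4%, against 4.86% and 7.08% of all genes, median 0.29), none of them in the fit of the 5 libraries alone. Cdh1, E-cadherin, measured 775 and 729 CPM in shMap3k7, against 425, 248 and 459 CPM in shControl (0.99 ± 0.21, adjusted p = 0.0159), with control clone 4 the lowest. Gjb2, a gap junction subunit, went the other way at 0.0650 and 1.45 CPM in shMap3k7, against 17.6, 13.1 and 12.6 CPM in shControl (-4.28 ± 0.76, adjusted p = 0.00833). Dsg2, a desmosomal cadherin, measured 102 and 124 CPM in shMap3k7, against 70.6, 60.7 and 75.6 CPM in shControl (0.72 ± 0.13, adjusted p = 0.0103). For junction genes, the number called higher was 1 without clone 1 and 2 without clone 7, and the number called lower was 1 without clone 1 and 1 without clone 7. Gjb2 kept its call when any 1 of the 5 libraries was left out, while Cdh1 and Dsg2 lost theirs without at least 1 of clone 1 and clone 7 (highest adjusted p per gene 0.0831 to 0.105). Of 17 keratins 11 were tested and 0 were called in either direction by edgeR, with 3 at an unadjusted p under 0.05, 2 called by DESeq2 and 1 by limma voom. Krt8 measured 3850.2 and 3750.1 CPM in shMap3k7, against 3066, 1324 and 2466 CPM in shControl (adjusted p = 0.0803) and Krt18 3060.4 and 2927 CPM in shMap3k7, against 1830.0, 631 and 1685 CPM in shControl (adjusted p = 0.052), both luminal keratins whose lowest library was control clone 4. With chromosome medians centred, edgeR called Krt18 higher (1.14, adjusted p = 0.0491). Leaving out a library gave 2 keratins called higher without the unnumbered line, 2 without control clone 4 and 3 without control clone 5. The controls differed among themselves, with the unnumbered line highest. Over the 11 tested keratins, the median log2 departure from the control mean was 0.55, -0.71 and -0.19 in shControl. It was 0.034 and -0.076 in shMap3k7.

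Cytoskeletal genes of contractile and mesenchymal cells were called lower in part. In this list, 1 of 23 tested was called higher and 8 lower (4.35% and 34.8%, against 4.86% and 7.08% of all genes, median -0.17). Of these, 0 higher and 2 lower were called in the fit of the 5 libraries alone as well. Dpysl3, a regulator of the cytoskeleton, measured 0.130 and 0.145 CPM in shMap3k7, against 67.7, 155 and 59.8 CPM in shControl (-9.35 ± 0.87, adjusted p = 4.56e-04). S100a4, a calcium-binding protein of motile cells, measured 44.2 and 30.9 CPM in shMap3k7, against 109, 197 and 85.3 CPM in shControl (-1.80 ± 0.33, adjusted p = 0.00925), and Mylk, the myosin light chain kinase, 0.390 and 0.145 CPM in shMap3k7, against 3.12, 4.57 and 2.86 CPM in shControl (-3.66 ± 0.82, adjusted p = 0.0195). Cald1, caldesmon, fell by 0.49 ± 0.12 (adjusted p = 0.0257). The actin crosslinker Flna and the myosin Myh9 were not called (-0.17 and -0.12). For cytoskeletal genes, the number called higher was 0 without clone 1, 0 without clone 7 and 0 without control clone 4, and the number called lower was 1 without clone 1, 1 without clone 7 and 4 without control clone 4. Dpysl3 kept its call when any 1 of the 5 libraries was left out, while S100a4, Mylk and Cald1 lost theirs without at least 1 of clone 1 and clone 7 (highest adjusted p per gene 0.0764 to 0.137).

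**Figure D4:**
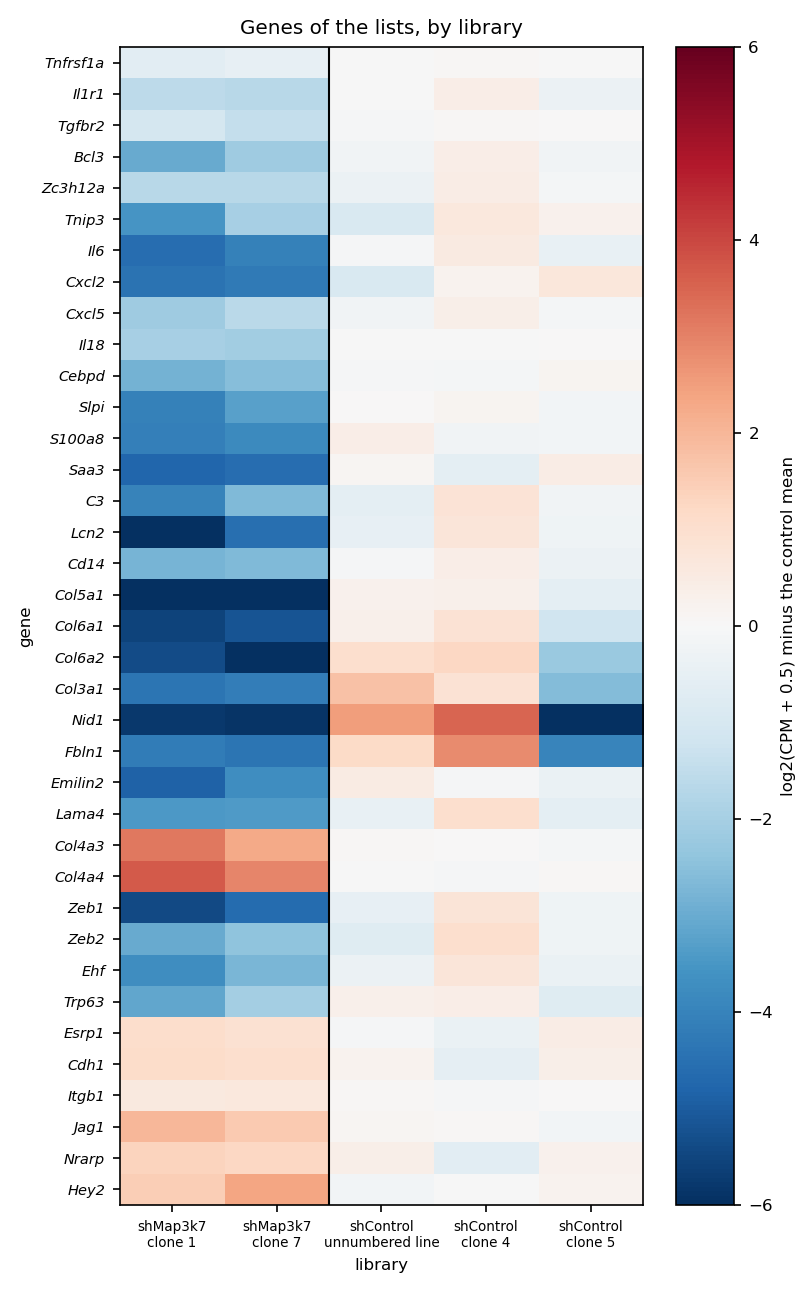
Heat map of log2(CPM + 0.5) minus the mean of the 3 controls for 37 genes of the lists, 1 row per gene and 1 column per library, shMap3k7 clones left of the line and controls right of it, with blue for lower and red for higher. Nid1 and Fbln1 are as blue in control clone 5 as in the shMap3k7 clones, whereas Bcl3, Il6, Slpi and Col5a1 are blue in the shMap3k7 clones and pale in all 3 controls.

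Besides Jag1, the Notch list held called genes of both directions. Of its genes, 3 of 22 tested were called higher and 3 lower (13.6% and 13.6%, against 4.86% and 7.08% of all genes, median -0.15), 1 higher and 0 lower in the fit of the 5 libraries alone as well. Nrarp and Hey2 are transcriptional targets of Notch. Hes1 and Hey1 of the same list were not called (0.44 and -1.54 on the log2 scale). Nrarp measured 36.3 and 33.9 CPM in shMap3k7, against 18.04, 8.98 and 16.9 CPM in shControl (1.26 ± 0.27, adjusted p = 0.0157). Hey2 measured 1.11 and 2.39 CPM in shMap3k7, against 0, 0.0519 and 0.165 CPM in shControl (4.43 ± 0.76, adjusted p = 0.00711), from 50 pooled counts against 4. Maml1, a Notch co-activator, measured 34.0 and 39.8 CPM in shMap3k7, against 58.9, 62.4 and 55.0 CPM in shControl (-0.67 ± 0.11, adjusted p = 0.00482). Notch1, the receptor, measured 368 and 357 CPM in shMap3k7, against 289, 336 and 251 CPM in shControl (0.31, adjusted p = 0.148). For this list, the number called higher was 1 without clone 7, and the number called lower was 0 without clone 1 and 1 without clone 7. Jag1 kept its call when any 1 of the 5 libraries was left out, while Nrarp, Hey2 and Maml1 lost theirs without at least 1 of clone 1 and clone 7 (highest adjusted p per gene 0.0563 to 0.101).

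Wnt and TGF-beta genes were called in both directions. Of Wnt genes, 1 of 32 tested was called higher and 5 lower (3.12% and 15.6%, against 4.86% and 7.08% of all genes, median -0.41). Of these, 0 higher and 1 lower were called in the fit of the 5 libraries alone as well. For Wnt genes, the number called higher was 0 without clone 1, 0 without clone 7, 4 without the unnumbered control line and 0 without control clone 5, and the number called lower was 1 without clone 1, 1 without clone 7, 3 without control clone 4 and 9 without control clone 5. Without the unnumbered line, rises (4) and falls (5) of Wnt genes were thus nearly equal in number. Rspo3, which amplifies Wnt signals, had no count in either clone against 694 pooled counts in shControl, and so was at least 126-fold lower. Fzd4, a Wnt receptor, measured 5.85 and 4.78 CPM in shMap3k7, against 25.8, 18.99 and 12.5 CPM in shControl (-1.84 ± 0.34, adjusted p = 0.0103), and Axin2, a feedback target of Wnt signals, 0.195 and 0.145 CPM in shMap3k7, against 1.62, 3.84 and 1.59 CPM in shControl (-3.73 ± 0.81, adjusted p = 0.0177). Of TGF-beta and BMP genes, 1 of 39 tested was called higher and 5 lower (2.56% and 12.8%, against 4.86% and 7.08% of all genes, median -0.42). Of these, 0 higher and 1 lower were called in the fit of the 5 libraries alone as well. For TGF-beta and BMP genes, the number called higher was 0 without clone 1, 0 without clone 7 and 3 without the unnumbered control line, and the number called lower was 1 without clone 1, 1 without clone 7 and 11 without control clone 5. Tgfbr3, the co-receptor betaglycan, measured 0.520 and 1.59 CPM in shMap3k7, against 29.0, 27.9 and 16.5 CPM in shControl (-4.55 ± 0.41, adjusted p = 4.32e-04). Ltbp2, a matrix protein of the latent TGF-beta binding family, measured 110.2 and 151 CPM in shMap3k7, against 369, 1148 and 396 CPM in shControl (-2.29 ± 0.46, adjusted p = 0.0128). Pmepa1, a feedback target of TGF-beta, was not called at 386 and 381 CPM in shMap3k7, against 349.8, 393 and 368 CPM in shControl (0.050, adjusted p = 0.833). Rspo3 and Tgfbr3 kept their calls when any 1 of the 5 libraries was left out, while Fzd4, Axin2 and Ltbp2 lost theirs without at least 1 of clone 1 and clone 7 (highest adjusted p per gene 0.0789 to 0.119).

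Growth factor, guidance and calcium-coupled receptor genes were called in both directions, and the growth factor shares lay under those of all genes. Of growth factors and receptor tyrosine kinases, 1 of 46 tested was called higher and 3 lower (2.17% and 6.52%, against 4.86% and 7.08% of all genes, median -0.26), 0 higher and 1 lower in the fit of the 5 libraries alone as well. Pdgfrb, a receptor of mesenchymal cells, had 1 count over both shMap3k7 clones against 794 over the 3 shControl lines. It was 433-fold lower in shMap3k7, with a 95% counting interval of 77.5 to 17134. Its ligand gene Pdgfb measured 127 and 119 CPM in shMap3k7, against 49.8, 29.7 and 75.6 CPM in shControl (1.25 ± 0.33, adjusted p = 0.0365). Of guidance and Eph genes, 4 of 44 tested were called higher and 6 lower (9.09% and 13.6%, median -0.18), 0 higher and 2 lower in the fit of the 5 libraries alone as well. Slit2, a guidance ligand, measured 59.4 and 37.8 CPM in shMap3k7, against 190.0, 284 and 163 CPM in shControl (-2.13 ± 0.40, adjusted p = 0.0107), and Epha1, an Eph receptor, 179 and 159 CPM in shMap3k7, against 61.1, 34.9 and 86.0 CPM in shControl (1.48 ± 0.30, adjusted p = 0.0138). Of calcium-coupled receptors and diacylglycerol genes, 6 of 48 tested were called higher and 8 lower (12.5% and 16.7%, median 0.0055), 0 higher and 2 lower in the fit of the 5 libraries alone as well. Plcd1, a phospholipase C, measured 13.7 and 17.2 CPM in shMap3k7, against 44.9, 51.5 and 46.7 CPM in shControl (-1.63 ± 0.16, adjusted p = 6.52e-04), and Bdkrb2, a bradykinin receptor, 22.4 and 20.1 CPM in shMap3k7, against 0.687, 0.363 and 3.46 CPM in shControl (3.81 ± 0.61, adjusted p = 0.00538). Ptger4, a prostaglandin E2 receptor, measured 3.12 and 1.74 CPM in shMap3k7, against 11.3, 20.1 and 11.3 CPM in shControl (-2.54 ± 0.45, adjusted p = 0.00822). For growth factor genes, the number called higher was 0 without clone 1, 0 without clone 7, 2 without the unnumbered control line, 0 without control clone 4 and 2 without control clone 5, and the number called lower was 1 without clone 1, 1 without clone 7 and 6 without control clone 5. Among guidance genes, the number called higher was 0 without clone 1, 1 without clone 7 and 2 without control clone 4, and the number called lower was 1 without clone 1 and 2 without clone 7. For calcium-coupled genes, the number called higher was 1 without clone 1, and the number called lower was 2 without clone 1 and 1 without clone 7. Pdgfrb, Plcd1 and Bdkrb2 kept their calls when any 1 of the 5 libraries was left out, while Pdgfb, Slit2, Epha1 and Ptger4 lost theirs without at least 1 of clone 1, clone 7, the unnumbered control line and control clone 4 (highest adjusted p per gene 0.0688 to 0.159).

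Antioxidant and xenobiotic enzyme genes were lower where they were called. Of these, 0 of 44 tested were called higher and 10 lower (22.7% lower, against 7.08% of all genes, median -0.44). In the fit of the 5 libraries alone, 0 higher and 1 lower were called as well. For these enzymes, the number called higher was 1 without the unnumbered control line and 1 without control clone 5, and the number called lower was 1 without clone 1, 5 without clone 7 and 5 without control clone 4. Sod3, the secreted superoxide dismutase, measured 15.3 and 17.5 CPM in shMap3k7, against 295, 426 and 449 CPM in shControl (-4.57 ± 0.51, adjusted p = 9.75e-04). Sod2, the mitochondrial enzyme and an NF-kB target, measured 46.6 and 49.8 CPM in shMap3k7, against 84.0, 149.9 and 122 CPM in shControl (-1.30 ± 0.21, adjusted p = 0.00526). Cyp1b1, a cytochrome P450, measured 13.9 and 26.1 CPM in shMap3k7, against 119, 239 and 73.1 CPM in shControl (-2.85 ± 0.49, adjusted p = 0.00726). Txn1 and Prdx1, thiol-based antioxidants, stood at 0.41 and 0.39 and were not called. Sod3 kept its call when any 1 of the 5 libraries was left out, while Sod2 and Cyp1b1 lost theirs without clone 1 (highest adjusted p per gene 0.061 to 0.0835).

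Markers of other cell types stood beside these results as follows. Each of the 10 epithelial markers had at least 1 count in every library, and their counts summed to 168203 and 149164 counts in shMap3k7, against 161749, 78171 and 130910 counts in shControl. Krt5 was nearly absent outside the unnumbered line. It had 1 and 5 counts in shMap3k7, against 784, 1 and 2 counts in shControl, and was not called (-6.25, adjusted p = 0.145). Of the epithelial markers 3 were called higher and 1 lower (30% and 10%, against 4.86% and 7.08% of all genes). Their median log2 fold change was 0.70. In the fit of the 5 libraries alone 0 were called as well, and 5 were called higher without control clone 5. Of the 10 fibroblast markers 5 were tested, 3 of them called lower (60%, against 7.08% of all genes) and 0 higher. Their counts summed to 118 and 148 counts in shMap3k7, against 1606, 955 and 481 counts in shControl. For the fibroblast list, 6 and 5 of its 10 measured genes were at 0 in shMap3k7, against 2, 2 and 4 in shControl. These sums were lower in both clones than in any control, as were the 5 interstitial collagens called lower, and their part in the matrix results was not tested. In bulk samples, fewer cells of a type and less RNA per cell cannot be told apart. For the endothelial list, 5 and 5 of its 7 measured genes were at 0 in shMap3k7, against 1, 4 and 3 in shControl. Smooth muscle markers summed to 21 and 5 counts in shMap3k7, against 63, 37 and 10 counts in shControl, and immune markers to 35 and 54 counts in shMap3k7, against 37, 28 and 33 counts in shControl. The immune sums overlapped between groups, and Ptprc, which marks leukocytes, had 3 and 1 counts in shMap3k7, against 1, 1 and 2 counts in shControl. Neuroendocrine markers summed to 1499 and 655 counts in shMap3k7, against 3139, 7438 and 3545 counts in shControl, nearly all from Ncam1, which was not called (adjusted p = 0.0515). On this list 1 gene was called lower without control clone 5. Of prostate luminal markers 7 of 12 were tested and 0 called (median log2 fold change 0.73), and the secretory gene Pbsn was at 0 in all 5 libraries. Without the unnumbered control line 3 luminal markers were called higher, and likewise 3 without control clone 4. Without control clone 5, 1 was called higher and 1 lower. Of basal markers 8 of 9 were tested, Cd44 called higher and Trp63 lower (12.5% each, against 4.86% and 7.08% of all genes). Their median log2 fold change was -0.69, and 2 were called lower without control clone 5. The epithelial part of the label was met by Krt8, Krt18, Krt14 and junction genes, but not by Krt5 outside the unnumbered line. The secretory marker Pbsn was absent.

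The same clones were also sequenced with Chd1 hairpins in place of the puromycin control hairpin, 2 libraries from each clone. These libraries entered the fit for its spread, so their values are a description. In the order of clone 1 and then clone 7, Map3k7 measured 41.7, 40.9, 42.2 and 39.3 CPM there, Slpi 94.2, 128, 139.7 and 114 CPM, Il6 0.221, 0.138, 0.208 and 0 CPM and Arfgef3 32.5, 33.4, 28.9 and 31.8 CPM. Lcn2 measured 0.884, 1.79, 10.7 and 1.96 CPM. In Slpi, Il6 and Arfgef3 these 4 libraries lay on the same side of the 3 shControl lines as the shMap3k7 clones, and for Lcn2 both libraries of clone 7 lay above both of clone 1.

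Position on the chromosomes moved with the result. Genes of chromosome 19 stood higher in both clones, with median log2 departures from the control mean of 0.45 and 0.29 in shMap3k7 and -0.031, 0.038 and -0.0016 in shControl. Of 469 tested genes there 153 were called higher (32.6%) and 23 lower (4.9%), against 4.86% and 7.08% of all genes. There 16 of the 153 rises reached 2-fold, against 170 of the 697 rises over all genes. On chromosome 4, where Map3k7 lies, the medians were 0.31 and 0.11 in shMap3k7 and -0.10, 0.076 and 0.032 in shControl, and on chromosome 7 they were -0.10 and -0.37 in shMap3k7 and -0.014, 0.027 and -0.0046 in shControl. The part of these shifts in the calls of single genes was not tested, other than by centring the chromosome medians. Called genes also sat side by side. Among 14194 tested genes with coordinates, 21 runs of at least 3 neighbouring tested genes were all called higher, 15 of them on chromosome 19, and 16 runs were all called lower. These runs held 77 called rises and 58 called falls, and how many runs a random order of genes would give was not tested. The longest run was of 7 higher genes on chromosome 19 (GRCm38 5273932 to 5427313), from Sf3b2 to AI837181, followed by 6 higher genes there (14448150 to 16780933) that held Psat1 and the G protein genes Gnaq and Gna14. With chromosome medians centred, 1 of these 7 and 2 of these 6 genes kept their calls. Sf3b2 was then at 0.031 (adjusted p = 0.79), AI837181 at 0.13 (adjusted p = 0.539), Gnaq at 0.25 (adjusted p = 0.0666) and Gna14 at 1.98 (adjusted p = 0.0665). Under the same setting, 4 of the 21 runs of higher genes and 13 of the 16 runs of lower genes were still called throughout. On chromosome 18, 6 protocadherin beta genes (Pcdhb15 to Pcdhb20, 37473540 to 37507822) were lower, and as near copies of each other they are uncertain. The limma voom test called 3 of these 6, and none of the 6 kept its call in all 5 fits that left out 1 library. Runs of 5 genes came next. One of lower genes on chromosome 2 (32308471 to 32405772) held Lcn2 with Dnm1, Ciz1 and Ptges2, and another on chromosome 5 (103989762 to 104505819) held Spp1 with Hsd17b11, Nudt9 and Pkd2. In all 5 fits that left out 1 library, 1 of the 7 and 1 of the 6 genes of the longest runs on chromosome 19 kept their calls, as did 1 gene of the run with Lcn2 and 2 of the run with Spp1. Gna14 and Pcdhb15 were among those that lost theirs without the unnumbered control line. A run of 4 on chromosome 16 (91372783 to 91565623), chosen after its values were seen, held the receptor genes Ifnar2, Il10rb, Ifnar1 and Ifngr2. Ifnar2, a subunit of the type I interferon receptor, measured 18.5 and 20.6 CPM in shMap3k7, against 46.5, 92.9 and 48.0 CPM in shControl (-1.68 ± 0.28, adjusted p = 0.00642). Ifngr2, of the interferon gamma receptor, measured 40.3 and 31.3 CPM in shMap3k7, against 62.3, 99.6 and 74.3 CPM in shControl (-1.14 ± 0.20, adjusted p = 0.00859). Chromosome 16 as a whole stood at 0.065 and -0.21 in shMap3k7 and 0.083, -0.15 and 0.081 in shControl, and with chromosome medians centred Ifnar2 was at -1.63 (adjusted p = 0.017) and Ifngr2 at -1.09 (adjusted p = 0.0132), while Ifnar1, at -0.74 (adjusted p = 0.0636), lost its call and the run was of called genes no longer. Ifnar2 and Ifngr2 lost their calls without at least 1 of clone 1 and clone 7 (highest adjusted p per gene 0.0707 to 0.0723).

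**Figure D5:**
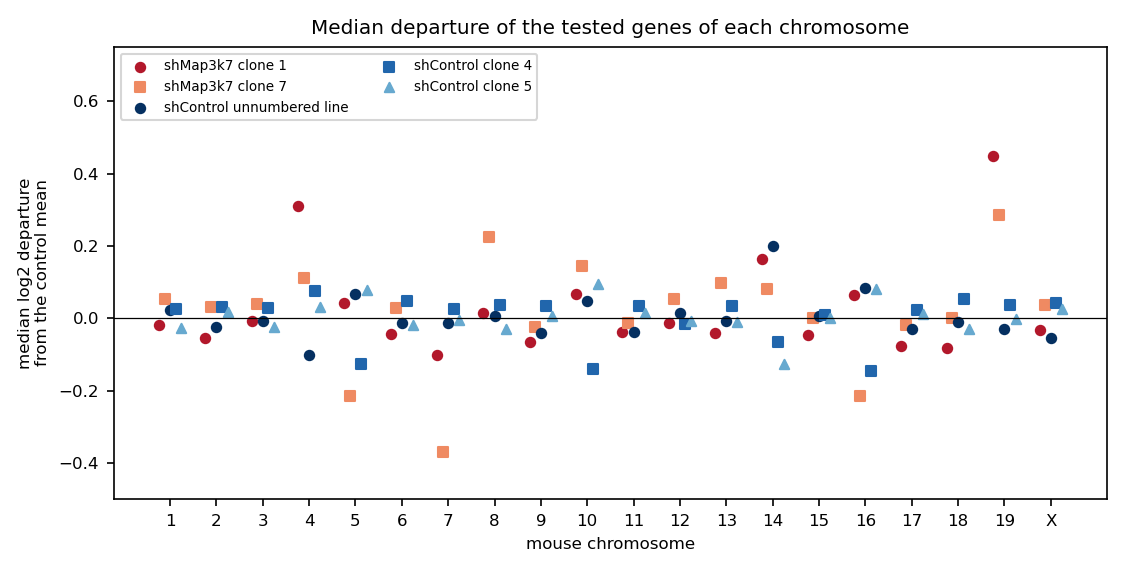
Median log2 departure of the tested genes of each mouse chromosome from the mean of the 3 controls, 1 symbol per library. On chromosome 19 both shMap3k7 clones, at 0.45 and 0.29, lie above all controls, and on chromosome 7 clone 7 lies at -0.37.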

How the data were processed

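RNA was sequenced from the WFU3 lines after enrichment with oligo(dT) beads, per the labels' protocols. The authors' deposited table holds RSEM expected counts per gene for all 11 libraries (Bowtie2, RSEM 1.3.1 and GRCm38, per the submitters' processing notes). The authors also deposited a log2 table made from these counts (limma, per the same notes), used only as a check: over 17963 genes in both tables its values differed from log2(count + 0.5) by a constant per library, to within 5.02e-09. Expected counts were rounded to whole numbers. Genes were kept by edgeR's filterByExpr (minimum count 10, minimum total 15), keeping 14346 genes (the rest held 0.117% of a library's counts or less), and scaled by TMM. Group means of all 4 groups were fitted with edgeR 4.0.16 in R 4.3.3 (glmQLFit and glmQLFTest), and the contrast shMap3k7 minus shControl was adjusted by Benjamini-Hochberg over all genes tested, called under 0.05. Standard errors are the absolute log2 fold change over the square root of F. Alternatives were the 5 libraries alone, other scalings and filters, DESeq2 1.42.0, limma 3.58.1 with voom, centred chromosome medians and leaving out each library. Counting intervals are at 95% and floors at 3 counts, and both cover counting error only. Coordinates were joined by symbol from GENCODE M21 (GRCm38), and promoter windows come from RefSeq.

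Members, gene lists and tests were chosen with earlier results of these data known. Named genes are the targeted genes, the best-separated and most abundant called genes, up to 4 called members of each list by p and up to 2 uncalled ones by level, any member of the TAK1, kinase, NF-kB and marker lists, and members of the longest runs of neighbours. Clcf1, Ctgf, Nid1, Fbln1, Hes1, Hey1 and the run of receptor genes on chromosome 16 were chosen after their values were seen. Some genes that the rule names are not reported here. The strand setting of the counting is not given in the sources used here, so reads of overlapping genes cannot be told apart.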

Additional observations from a re-analysis of the deposited data

How the results depend on the processing

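The counts over all genes depended on which libraries entered the fit. Against 697 rises and 1015 falls, the fit of the 5 libraries alone called 42 and 185, and leaving out 1 library gave 88 to 873 rises and 156 to 1197 falls, lowest without clone 1. The DESeq2 Wald test called 1147 rises and 1462 falls, and limma voom 657 and 762. DESeq2 size factors, upper quartile factors, no filter, a minimum count of 50 and centring of chromosome medians each gave counts within 1.5 times those reported. The fold change of Map3k7 kept its direction and call in every alternative run. Of 150 of the genes named, the fit of the 5 libraries ended the call of 67, limma voom of 8 and centring of chromosome medians of 10. The cause was not tested, and no called gene changed direction. Some genes that were not called changed sign. Csf1 (-0.26 as reported) was at -0.49 to 0.071 with 1 library left out. Ikbkb (-0.039 as reported) was at -0.21 to 0.11 with 1 library left out. Mapk14 (0.025 as reported) was at -0.034 to 0.069 with 1 library left out. Rela (0.079 as reported) was at -0.29 with chromosome medians centred and -0.049 to 0.18 with 1 library left out. Tab1 (0.014 as reported) was at -0.0035 on the 5 libraries alone, -0.0014 with upper quartile factors, -0.0048 with a minimum count of 50 and -0.12 to 0.13 with 1 library left out. Tab2 (0.024 as reported) was at -0.076 with chromosome medians centred and -0.044 to 0.16 with 1 library left out. Tnfaip3 (-0.062 as reported) was at -0.26 to 0.11 with 1 library left out. Traf2 (-0.082 as reported) was at -0.19 to 0.010 with 1 library left out. No paired analysis was possible because the shMap3k7 clones (1 and 7) and the control lines (4, 5 and an unnumbered one) share no line or clone number. Total counts of 14132339 to 18859721 limit genes of few counts: 57 called falls had no count in either clone, and for them only a lower bound on the fold is known.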
